A study of Mus musculus with 2 samples.

Results

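Heat shock proteins and chaperonins are the proteins that fold other proteins, and 42 of their genes were compared between adipose tissue macrophages (ATM) of mice with and without a Cre that targets Hif-1α in myeloid cells. The 42 genes were taken from a list of HSP70, HSP90 and HSP40 proteins, their co-chaperones, the mitochondrial and cytosolic chaperonins and prefoldin. All 42 were found among the 20330 gene identifiers of the expression table, and 41 had a value high enough to be compared.

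The cells came from the visceral adipose tissue of C57BL/6 mice fed a high-fat diet for 12 weeks, and were sorted on F4/80 and CD11b, surface proteins of macrophages. The KO library came from hMRP8cre+;Hif-1αfl/fl;ApoE-/- mice and the WT library from hMRP8cre-;Hif-1αfl/fl;ApoE-/- mice, so by their labels both genotypes were ApoE-/- and carried floxed Hif-1α, and only KO carried Cre under the human MRP8 promoter, which is active in myeloid cells. The labels do not give the animals' age or say how many animals were behind a library. With 1 poly(A) RNA library for each genotype there was no replicate, no test of a difference could be run, and every difference below is one between 2 libraries. Values are FPKM, fragments per kilobase of transcript scaled to the mapped fragments of the library, so levels can be compared between genes.

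Chaperones bind unfolded protein and release it in cycles driven by ATP. HSP70 proteins bind short exposed stretches with the help of HSP40 partners, and HSP90 receives part-folded clients such as kinases and steroid receptors from HSP70. The cytosolic chaperonin TRiC, a double ring of CCT subunits, folds actin and tubulin, which prefoldin delivers to it. Under heat or other stress that unfolds protein, the transcription factor HSF1 binds heat shock elements and raises the inducible members many-fold, while the constitutive members are made at all times. In macrophages, chaperones of the endoplasmic reticulum (ER) also fold Toll-like receptors and integrins.

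Promoter sequences of the members whose values are described first are shown because they hold, or lack, the elements through which stress acts. Sequences are from RefSeq on GRCm38.p6, and 34 of the 42 members had an entry, with 45 promoter windows of 300 bases, from 250 before to 50 after a start site. The submitters' processing notes name the mm9 build, so the coordinates below belong to the sequences and not to the expression table. Hspa1a and Hspa1b encode the stress-inducible HSP70 and lie 12918 bases apart on chromosome 17. Over the 250 bases before the start site they differ at 3 positions, C44T, T47C and T249G, given as the base of Hspa1a, the position from the 5′ end of the stretch and the base of Hspa1b. Capitals mark the 8-letter heat shock core GAANNTTC, where N is any base. The Hspa1a stretch is chr17:34972157-34972406 and the Hspa1b stretch chr17:34959239-34959488, both on the minus strand.
Hspa1a: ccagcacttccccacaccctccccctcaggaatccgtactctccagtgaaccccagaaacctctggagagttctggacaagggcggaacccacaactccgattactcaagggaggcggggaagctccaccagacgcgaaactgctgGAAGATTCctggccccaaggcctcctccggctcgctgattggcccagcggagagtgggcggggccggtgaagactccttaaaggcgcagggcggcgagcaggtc
Hspa1b: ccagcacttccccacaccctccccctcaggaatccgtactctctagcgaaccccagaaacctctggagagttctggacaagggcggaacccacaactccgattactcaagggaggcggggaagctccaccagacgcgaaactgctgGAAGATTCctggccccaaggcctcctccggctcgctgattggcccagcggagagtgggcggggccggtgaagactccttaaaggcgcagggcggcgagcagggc

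Hspb1 encodes the small heat shock protein HSP25. Its last 150 bases before the start site, chr5:135887769-135887918 on the plus strand, hold the same core at 2 places, in capitals.
Hspb1: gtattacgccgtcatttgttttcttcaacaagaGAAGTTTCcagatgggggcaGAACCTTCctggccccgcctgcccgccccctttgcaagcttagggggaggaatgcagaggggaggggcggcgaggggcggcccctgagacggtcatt
Hspd1 and Hspe1 encode the mitochondrial chaperonin HSP60 and its lid HSP10. They are read in opposite directions from 1 shared promoter, and their annotated first exons overlap by 112 bases. The 120 bases before the start site of Hspe1, chr1:55088028-55088147 on the plus strand, hold overlapping matches to the full heat shock element, which is GAANNTTC followed by NNGAA, read on either strand and shown in capitals.
Hspe1: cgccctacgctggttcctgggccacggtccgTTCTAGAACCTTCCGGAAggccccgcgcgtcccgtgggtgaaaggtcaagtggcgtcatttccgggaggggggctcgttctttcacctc
Hspa5 and Hsp90b1 encode the ER chaperones BiP and GRP94. The 100 bases before the Hspa5 start, chr2:34771990-34772089 on the plus strand, and the 220 bases before the Hsp90b1 start, chr10:86705445-86705664 on the minus strand, hold the ER stress response element, which is CCAAT and CCACG with 9 bases of any kind between them, in capitals, at 1 and at 2 places.
Hspa5: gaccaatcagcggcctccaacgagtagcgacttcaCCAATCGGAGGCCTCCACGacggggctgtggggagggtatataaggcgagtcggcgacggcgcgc
Hsp90b1: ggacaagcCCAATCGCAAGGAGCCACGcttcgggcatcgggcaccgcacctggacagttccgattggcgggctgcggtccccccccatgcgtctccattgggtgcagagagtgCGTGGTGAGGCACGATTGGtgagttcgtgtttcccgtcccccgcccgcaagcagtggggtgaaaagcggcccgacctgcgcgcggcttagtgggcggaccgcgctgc

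Both strands of all windows were searched for these letters, and the full heat shock element contains the 8-letter core. The full element was present in 4 of the 34 members with an entry, Hspd1, Hspe1, Hsph1 and Dnajb6, and in 0.662% of the 27025 genes with an entry, or 0.603% of all 32851 promoter windows. The 8-letter core, which was searched after the values had been seen, was present in 10 members and in 9.04% of genes, or 7.86% of all windows. The ER stress response element was present in Hspa5 and Hsp90b1 alone among the 34 members and in 0.137% of genes, or 0.119% of all windows. A match of letters is a description of the sequence and not a shown binding site.

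FPKM summed to 585823 in WT and 568329 in KO, and the smallest recurring product of FPKM and transcript length in kilobases, taken as 1 fragment, was 0.171 in WT and 0.133 in KO, so that KO was the deeper library. Fragment numbers given below are estimates from these steps. The share of all FPKM that fell to the 42 members was 0.616% in WT against 0.699% in KO. Hif1a was at 30.4 FPKM in WT against 20.97 in KO, a value over the whole gene, in which the floxed part was not told apart. Of 6 HIF-1 control genes compared, Hif1a included, 3 were higher and 3 lower in KO, with Slc2a1 at 15.4 and 41.97 FPKM, Bnip3 at 1.51 and 8.93, Ldha at 106 and 57.1 and Pgk1 at 84.9 and 50.95. Apoe was listed at 94.3 FPKM in WT and 117 in KO, so transcript of the gene labelled as knocked out was present in both libraries. This too is a value over the whole gene, which does not tell a disrupted transcript from an intact one. Summed macrophage markers were at 16656 FPKM in WT against 16114 in KO, and all 12 that the table holds were above 0 in both libraries.

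The comparison asked how chaperone expression differs between ATM of Cre-carrying KO and Cre-free WT mice. A change is log2(FPKM + 1), KO minus WT, and a gene was called higher or lower past 3-fold on this scale. The study also used 3-fold but names no pseudocount, and adding 1 makes the call stricter for low genes. Of the 41 members compared, 6 were higher and 2 were lower in KO, or 19.5% in all. The background was 27.3% of the 10297 genes compared, of which 13.6% were higher and 13.7% lower. With an FPKM of at least 1 required in both libraries, 7 of 40 members passed 3-fold against 11.5% of genes. The median change was 0.16 over the members and 0.03 over all genes compared. The members as a set were thus near the background, and 20 of the 41 differed by less than 1.5-fold.

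**Figure D1:**
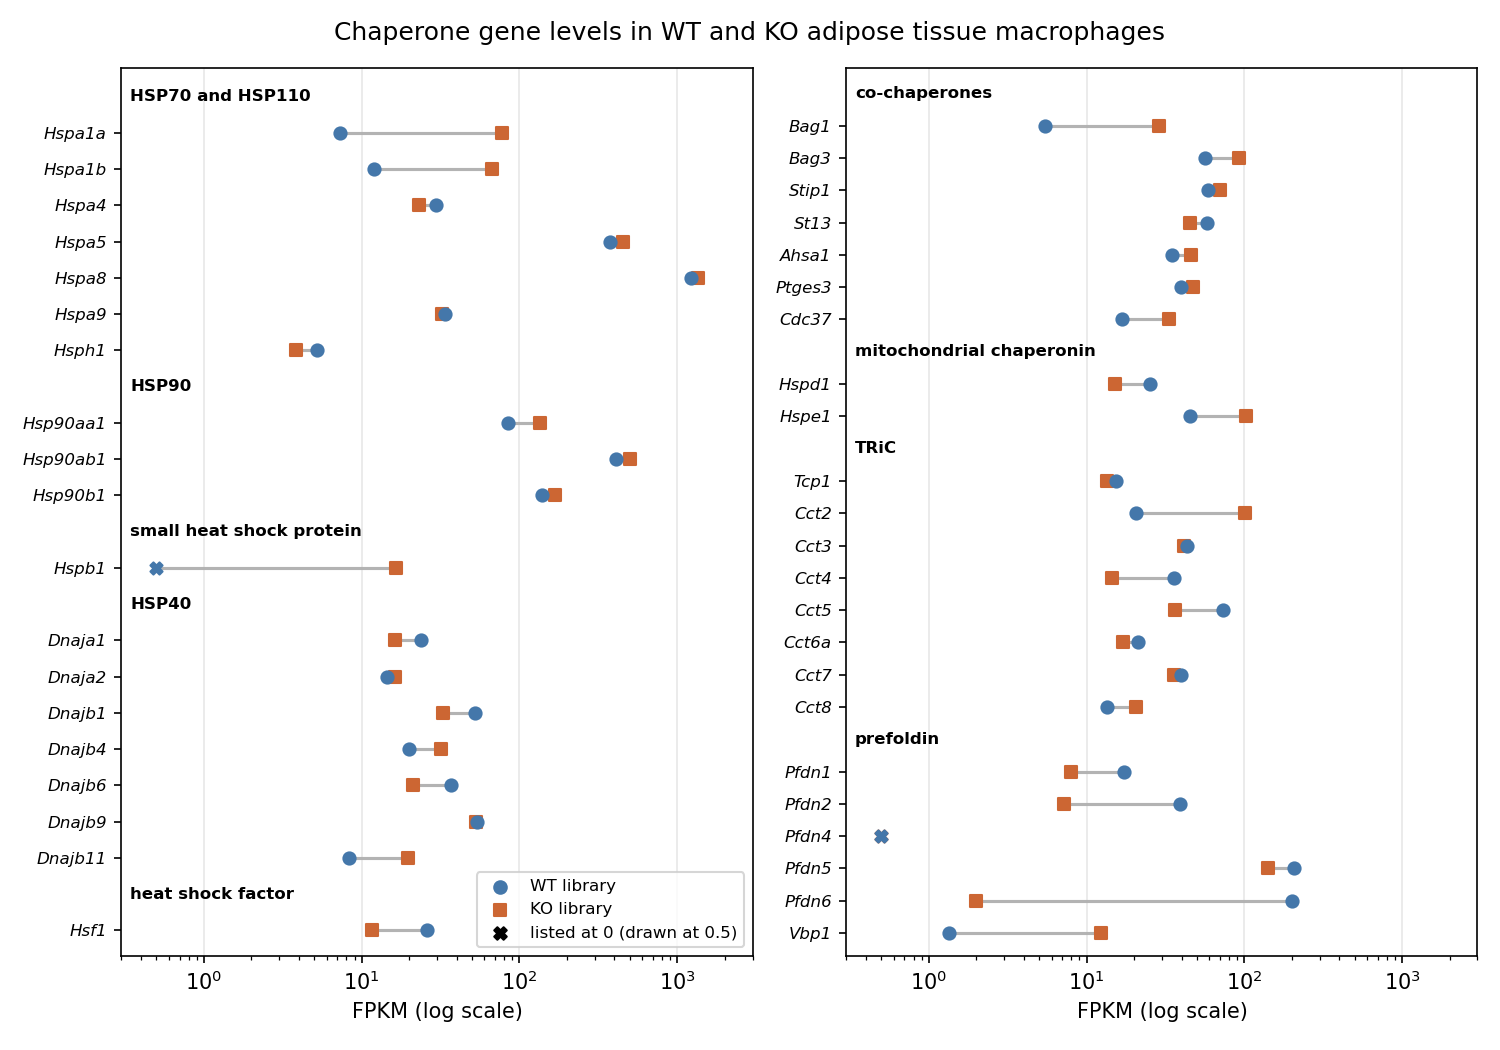
FPKM of each of the 42 genes on a log axis, with a circle for the WT library and a square for the KO library, grouped by class. Crosses drawn at 0.5 mark a listed value of 0, which Hspb1 has in WT and Pfdn4 has in both libraries. The widest gaps are those of Pfdn6, Hspa1a, Vbp1 and Hspb1, while Hspa8, the highest gene, is at 1215 and 1357 FPKM.

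How far unrelated genes differed depended on their level, so each member is also read beside genes of its own level. At a mean FPKM under 10, 41.1% of genes passed 3-fold and 2 of 3 members did. At 10 to 50, 16.3% of genes passed and 4 of 24 members did. At 50 to 200, 4.31% passed and 2 of 11 members did, and at 200 and above 1.27% passed and 0 of 3 members did. Hspa1a, Cct2 and Pfdn6 lay outside the middle 95% of changes in their band, and Hspa1a together with its near-identical copy Hspa1b, with a summed mean of 81.6 FPKM and a change of 2.84, lay above the upper limit of 1.34 at 50 to 200. Hspb1 did too, but it is listed at 0 in WT and was compared only through its KO value, so its change is set by the pseudocount and its place is a description. Hspa1b taken alone, Bag1, Vbp1 and Pfdn2 passed 3-fold but lay inside it.

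**Figure D2:**
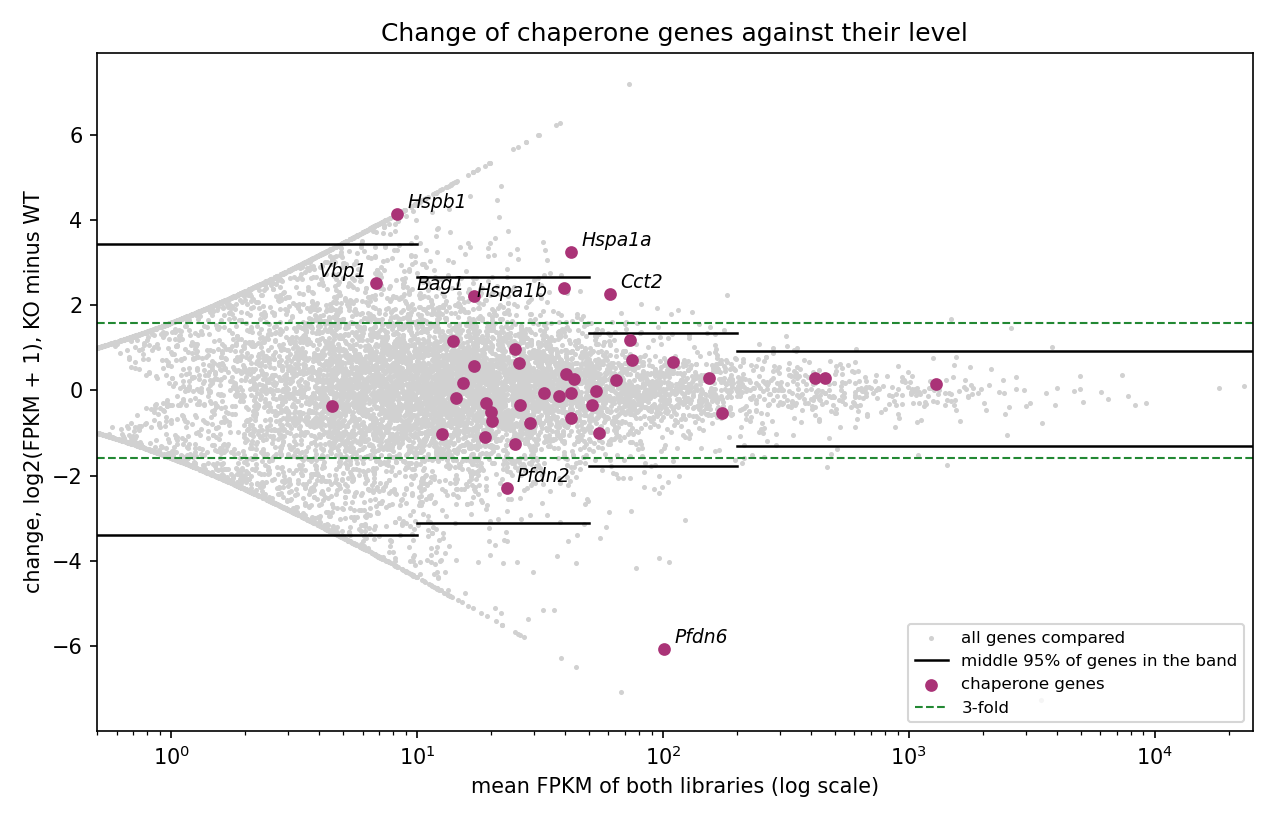
Change of each gene, log2(FPKM + 1), KO minus WT, against its mean FPKM in both libraries on a log axis. Grey points are the 10297 genes compared, purple points the members, black lines the middle 95% of genes in each band of level and dashed lines 3-fold. Pfdn6 and Cct2 stand outside the lines of the 50 to 200 band, Hspa1a above that of the 10 to 50 band and Hspb1 above that of the band under 10.

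Both inducible HSP70 genes were higher in KO past 3-fold. Hspa1a (ENSMUSG00000091971) was at 7.28 FPKM in WT against 77.1 in KO, a change of 3.24. Hspa1b (ENSMUSG00000090877) was at 11.9 and 66.9 FPKM, a change of 2.39. Both were low in WT and well above their WT level in KO, on an estimated 127 and 196 fragments in WT and 1722 and 1413 in KO. Their coding sequences were 99.4% identical, with 8 substitutions and a gap of 3 bases, and 60.3% of the 50-base words of the Hspa1a transcript occur in another annotated gene. How the reads were divided between the pair is therefore uncertain, and their sum is the safer value. Summed, the pair was at 19.2 FPKM in WT against 144 in KO, which is 7.50-fold higher. Hspa1l, the testis-type neighbour that shares some of this sequence, was listed at 0 in WT but had 1.92 FPKM in KO.

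The constitutive HSP70 proteins were nearly level between the libraries. Hspa8, which encodes the housekeeping HSC70, was at 1215 FPKM in WT against 1357 in KO, a change of 0.16, and was the highest of all members in both libraries. Of its 50-base words 73.2% occur in other annotated genes, 11 in all, so its level and the shares below depend on how such reads were assigned. It ranked 74th among all genes in WT and 57th in KO. The inducible pair made up 1.56% of the cytosolic sum of Hspa1a, Hspa1b and Hspa8 in WT and 9.59% in KO. Hspa4, an HSP110 protein that exchanges nucleotide on HSP70, was at 29.4 and 22.9 FPKM. Hsph1, the heat-inducible HSP110, was at 5.24 FPKM in WT against 3.81 in KO, so it did not share the direction of Hspa1a and Hspa1b. Hspa9, the HSP70 of the mitochondrial matrix, was at 33.7 and 32.2 FPKM.

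Hspb1 (ENSMUSG00000004951) was listed at 0 in WT but had 16.6 FPKM in KO, on an estimated 116 fragments in KO. No fold is given, because genes that cells need at all times, such as Pfdn4, are also listed at 0 in this table and a 0 can be a failed estimate. Of its 50-base words, 51.6% also occur in the pseudogene Hsp25-ps1, which is not in the expression table.

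None of the 3 HSP90 genes passed 3-fold, and each had the higher value in KO, as had 5280 of all 10297 genes. Of all genes, 4.31% at a mean FPKM of 50 to 200 and 1.27% at 200 and above passed. Hsp90ab1, the constitutive cytosolic form, was at 411 FPKM in WT against 504 in KO. Hsp90aa1, the inducible form, was at 84.4 and 135 FPKM, a change of 0.67, and its share of the cytosolic pair was 17.05% in WT and 21.1% in KO. Other annotated genes hold 58.5% of the 50-base words of Hsp90aa1 and 4.49% of those of Hsp90ab1. Hsp90b1, the ER form, was at 138 and 169 FPKM. The 3 changes of 0.30, 0.67 and 0.29 were inside the middle 95% of genes at their level.

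HSF1 drives the inducible genes. Hsf1 was at 26.1 FPKM in WT against 11.7 in KO, a change of -1.09 that did not pass 3-fold. The HSP40 genes, whose products bring clients to HSP70 and stimulate its ATPase, went both ways. Dnajb1, the HSP40 that heat induces together with Hspa1a, was at 52.0 FPKM in WT against 32.5 in KO. Dnaja1, the farnesylated partner of HSC70, was at 23.7 and 16.3 FPKM, and Dnajb6, a suppressor of polyglutamine aggregation, was at 36.7 and 21.1. These 3 had the lower value in KO, each by less than 2-fold. Dnaja2 was at 14.4 and 16.3 FPKM and Dnajb4 at 19.97 and 31.8. The median change of the 7 HSP40 genes was -0.01, a value that became 0.04 with libraries scaled to the same sum.

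A list of 14 heat-inducible genes held Hspa1a, Hspa1b, Hsph1, Dnajb1, Dnaja1, Dnajb4, Hsp90aa1, Hspb1, Hspd1, Hspe1, Bag3, Ahsa1, Stip1 and also Hspa8, which is mainly constitutive. It had a median change of 0.51, with the higher value in KO for 10 and in WT for 4, beside 5280 and 5017 of all genes. The median was 0.38 with at least 1 FPKM required in both libraries, which leaves out Hspb1. It was also 0.38 with Hspa1a and Hspa1b summed. Hspa1a, Hspa1b and Hspb1 passed 3-fold, or 21.4% of the list beside the background of 27.3%. That background falls with level, from 41.1% under 10 FPKM to 16.3% at 10 to 50, 4.31% at 50 to 200 and 1.27% at 200 and above. Of the list only Hspb1 and Hsph1 had a mean under 10 FPKM, so the 27.3% is not matched to its level. The 4 with the lower value in KO were Hsph1, Dnajb1, Dnaja1 and Hspd1, all within 3-fold and inside the middle 95% of their band. Of the 4 members found with the full heat shock element, Hspd1, Hspe1, Hsph1 and Dnajb6, 0 passed 3-fold. Of the 10 members with the 8-letter core, Hspa1a, Hspa1b, Hspb1 and Cct2 passed, while Dnaja1, Bag3 and the 4 with the full element did not. Beside these counts, 19.5% of all members and 27.3% of all genes compared passed. The core was searched after the values had been seen, and Hspb1 was compared only through its KO value. Hspa1a and Hspa1b are near-identical copies. Whether genes with either element passed more often than others was not tested. Immediate-early genes, which like heat shock genes respond to handling of tissue, were set beside them; the part of handling was not tested. Fos was at 499 FPKM in WT against 569 in KO, Egr1 at 722 and 904, Atf3 at 262 and 266 and Dusp1 at 1124 and 1313. Of the 18 on the list, 13 had the higher value in KO and 5 the lower. Among the lower were Egr2 at 143 and 84.7 FPKM, Klf4 at 276 and 179 and Nr4a1 at 608 and 489. All 18 were present in both libraries, each differed by less than 1.8-fold, and their median change was 0.15. They were at 49.1 FPKM or more in WT and 72.6 or more in KO. Few genes of such levels passed 3-fold, 4.31% at a mean FPKM of 50 to 200 and 1.27% at 200 and above.

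Of the 7 co-chaperones 6 had the higher value in KO, beside 5280 of all 10297 genes, and the median change was 0.38. Past 3-fold was 1 of the 7, or 14.3%, beside the background of 27.3%. All 7 had a mean of 10 to 200 FPKM, where 16.3% of all genes at 10 to 50 and 4.31% at 50 to 200 passed. Bag1 (ENSMUSG00000028416), a nucleotide exchange factor that links HSP70 to the proteasome, was at 5.45 FPKM in WT against 28.8 in KO, a change of 2.21, with about 43.0 and 292 fragments. It was the only co-chaperone past 3-fold. Bag3, the heat-inducible relative that directs aggregated clients to autophagy, was at 56.3 and 93.0 FPKM. Cdc37, which brings kinases to HSP90, was at 16.7 and 33.4 FPKM. Stip1, the adaptor HOP between HSP70 and HSP90, was at 59.1 and 70.1 FPKM. Ahsa1, which activates the HSP90 ATPase, was at 34.8 and 45.7 FPKM, and Ptges3, the p23 co-chaperone, was at 39.3 and 47.4. St13, the HSP70-interacting protein HIP, was the one co-chaperone with the lower value in KO, at 57.6 and 44.9 FPKM.

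The ER chaperones stayed within 3-fold. Hspa5 (BiP) was at 372 FPKM in WT against 455 in KO, a change of 0.29, equal within rounding to that of Hsp90b1. Dnajb9, a BiP partner raised by ER stress, was at 53.5 and 53.4 FPKM. Dnajb11, another BiP partner, was at 8.32 and 19.6 FPKM, a change of 1.15. The median of these 4 genes was 0.29, and 0 of them passed 3-fold, beside 27.3% of all genes compared. At their mean levels the share was smaller. It was 16.3% at 10 to 50 FPKM (Dnajb11), 4.31% at 50 to 200 (Dnajb9 and Hsp90b1) and 1.27% at 200 and above (Hspa5).

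Neither mitochondrial chaperonin gene passed 3-fold, and both lay inside the middle 95% of genes at their level. Of all genes, 16.3% passed at the mean level of Hspd1 (10 to 50 FPKM) and 4.31% at that of Hspe1 (50 to 200 FPKM). Hspd1 was at 25.4 FPKM in WT against 15.02 in KO, a change of -0.72. Hspe1 was at 45.0 and 102 FPKM, a change of 1.17. The ratio of Hspe1 to Hspd1 was 1.77 in WT and 6.82 in KO. Both have processed pseudogenes, and 44.8% of the 50-base words of Hspd1 and 36.1% of those of Hspe1 occur in other annotated genes.

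**Figure D3:**
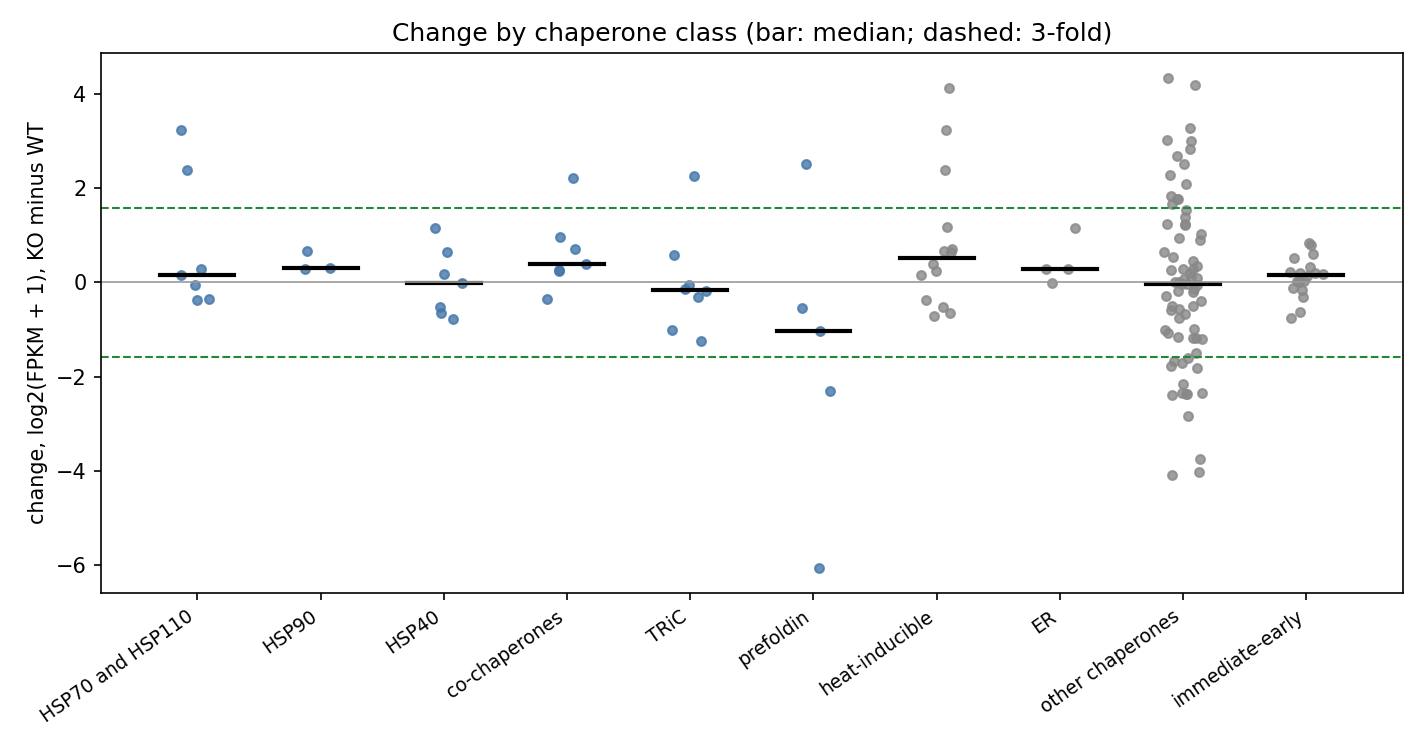
Change, log2(FPKM + 1), KO minus WT, of every gene compared in 6 classes of members, in blue, and in lists that cross the classes or lie outside them, in grey. Bars are medians and dashed lines 3-fold. The prefoldin median lies at -1.03 and the heat-inducible median at 0.51, or 0.38 with Hspa1a and Hspa1b summed. The 18 immediate-early genes stay inside the 3-fold lines, which 4.31% of all genes at a mean FPKM of 50 to 200 and 1.27% at 200 and above passed.

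TRiC subunits are present in equal numbers in the ring, but their transcripts differed in level and in change. Cct2 (ENSMUSG00000034024) was at 20.4 FPKM in WT against 101 in KO, a change of 2.25, with about 234 and 1488 fragments. Its change was above that of 99.8% of genes at a mean FPKM of 50 to 200. It was the only TRiC subunit past 3-fold, 1 of 8 or 12.5% beside the background of 27.3%. All 8 had a mean of 10 to 200 FPKM, where 16.3% of all genes at 10 to 50 and 4.31% at 50 to 200 passed. Cct5 and Cct4 had the lower value in KO, within 3-fold. Cct5 stood at 73.6 FPKM in WT against 36.0 in KO and Cct4 at 35.8 against 14.5, changes of -1.01 and -1.25. Tcp1, which encodes CCT1, was at 15.4 and 13.5 FPKM, Cct3 at 43.0 and 41.3 and Cct7 at 39.6 and 35.7. Cct6a was at 21.1 and 16.9 FPKM and Cct8 at 13.4 and 20.6. Across the 8 subunits the median change was -0.16, and the value was higher in KO for 2 and lower for 6, beside 5280 and 5017 of all genes. The highest subunit was 5.48-fold above the lowest in WT, where it was Cct5, and 7.46-fold in KO, where it was Cct2. Summed over the ring, FPKM was 262 in WT and 279 in KO, a sum in which the higher KO value of Cct2 offset the lower values of 6 subunits.

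Prefoldin had a median change of -1.03 over 5 subunits compared, the lowest among the classes of more than 1 gene. The value was lower in KO for 4 of the 5, beside 5017 of all 10297 genes, and 3 of the 5 passed 3-fold, or 60.0%, beside the background of 27.3%. Those 3 were Pfdn2 and Pfdn6, which were lower, and Vbp1, which was higher. By mean level Vbp1 lay under 10 FPKM, where 41.1% of all genes passed. Pfdn1 and Pfdn2 lay at 10 to 50, where 16.3% did, and Pfdn5 and Pfdn6 at 50 to 200, where 4.31% did. Pfdn6 (ENSMUSG00000024309) was at 199.9 FPKM in WT against 1.998 in KO, a change of -6.07, with about 945 and 12.1 fragments. In WT it was the subunit next to the highest and in KO it was the lowest of those above 0. Only 0.0979% of genes at its level had a lower change. Pfdn2 (ENSMUSG00000006412) was at 39.1 and 7.15 FPKM, a change of -2.30, with about 397 and 93.4 fragments. Pfdn1 was at 17.3 and 7.999 FPKM and Pfdn5, known also as the MYC-binding protein MM-1, at 207 and 142. Vbp1 (ENSMUSG00000031197), the subunit also named prefoldin 3, was the one subunit higher in KO, with 1.34 FPKM in WT against 12.3 in KO, a change of 2.51. Its WT value rested on an estimated 12.5 fragments. Pfdn4 was listed at 0 in both libraries. The prefoldin sum was 465 FPKM in WT against 171 in KO, and most of that difference lay in Pfdn6 alone.

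**Figure D4:**
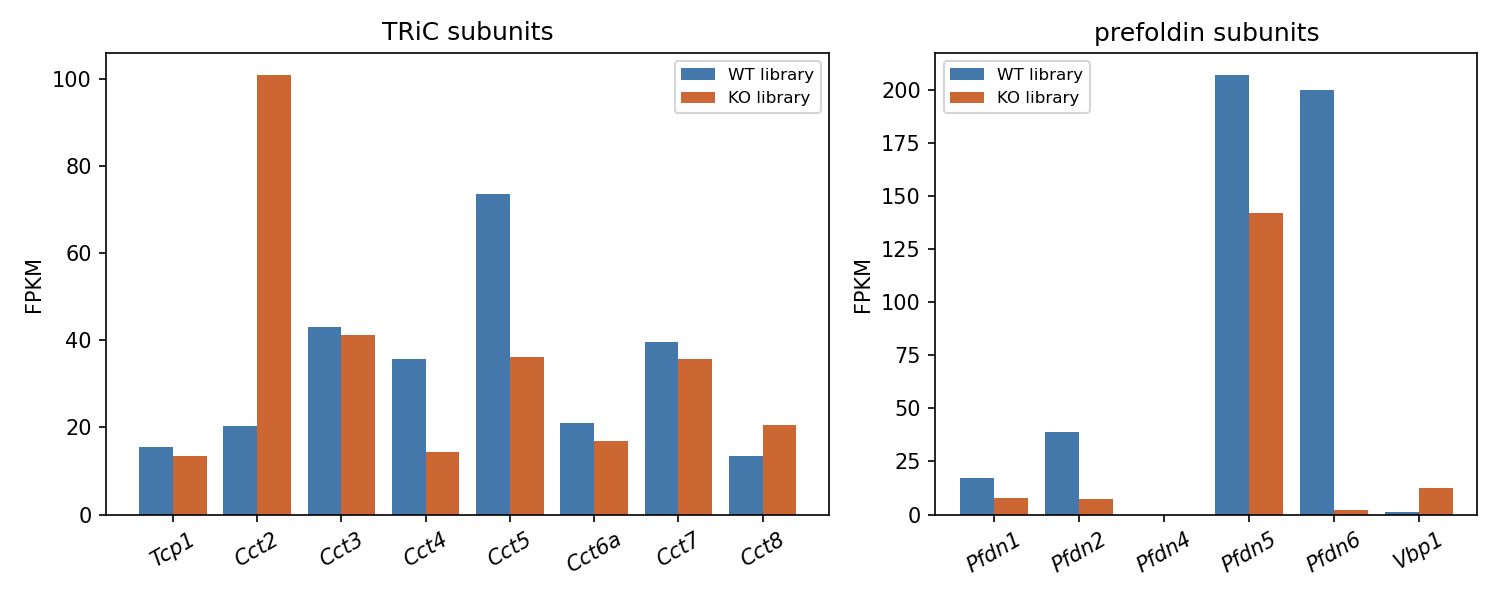
FPKM of the 8 TRiC subunits (left) and the 6 prefoldin subunits (right) in the WT and the KO library, on linear axes that start at 0. Cct2 is the one tall KO bar of the ring at 101 FPKM, and Pfdn6 is at 199.9 FPKM in WT against 1.998 in KO.

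Several values stand beside these results. Of the 3 members with a transcript under 1000 bases, Hspb1, Hspe1 and Pfdn6, 2 passed 3-fold, and 38.1% of genes with such short transcripts did. Exons of 17 members overlap those of another annotated gene, and the library protocol names no step that marks the strand. Among the 8 members past 3-fold, Hspa1a overlaps the protein-coding gene Gm20481 on the other strand over 564 of 2967 exonic bases, and Pfdn6 overlaps the antisense gene CR974462.1 over 78 of 1193. Pfdn2 overlaps Klhdc9, which was listed at 0 in both libraries, over 535 of 1937 bases, and the exons of Cct2, Bag1, Vbp1, Hspb1 and Hspa1b overlap no other gene. Cct2, Bag1, Vbp1 and Pfdn2 share no 50-base word with another gene. Neutrophil markers were higher in KO for 8 of the 12 in the table and at 0 in both libraries for 4 (Camp, Ltf, Mmp8 and Elane), and their sum was 197 FPKM in WT against 572 in KO. Most of both sums came from S100a8, at 73.3 and 182 FPKM, and S100a9, at 63.4 and 301. Mmp9, the next, was at 38.3 and 48.9 FPKM. Fibroblast markers summed to 55.2 and 95.2 FPKM, and 8 adipocyte markers to 113 and 120, with Adipoq, Plin1 and Retn at 0 in both. Of the T and NK cell markers 7 of 8 were at 0 in both libraries, Cd3e among them, and Cd2 was at 23.6 and 29.3 FPKM. Of the eosinophil and mast cell markers 7 of 9 were at 0 in both, Siglecf among them, while Ccr3 and Kit were at 0 in WT and at 7.45 and 1.03 FPKM in KO. Of the mesothelial markers 4 of 5 were at 0 in both, Msln among them, and Upk3b was at 0 in WT and 7.84 FPKM in KO. The 6 B cell markers summed to 2.75 and 6.46 FPKM, with Cd79b at 0 and 5.52 and Cd79a at 2.50 and 0.222. The 6 dendritic cell markers summed to 125 and 140.3 FPKM, of which Cd209a took 122 and 131, and Zbtb46 was at 0 and 9.45. The 7 endothelial markers summed to 17.7 and 16.03 FPKM. In sorted bulk RNA, fewer cells of a type and less RNA per cell cannot be told apart. The part of transcript length and of RNA from other cells in the chaperone values was not tested.

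Chaperone genes outside the 42 were examined as a wider set. Of 88 found in the table, 72 could be compared, 14 were higher and 15 were lower past 3-fold, or 40.3% beside the background of 27.3% of all genes compared, and their median change was -0.03, or 0.01 with libraries scaled to the same sum. By mean level, 23 of 42 passed under 10 FPKM, where 41.1% of all genes did, 6 of 26 at 10 to 50, where 16.3% did, and 0 of 4 at 50 to 200, where 4.31% did. Of the 39 with at least 10 FPKM in a library, 3 were higher and 9 were lower past 3-fold, beside 9.49% and 10.3% of all 5965 such genes. Trap1, the HSP90 of mitochondria, was at 12.3 FPKM in WT against 55.3 in KO. Hspbp1, which releases nucleotide from HSP70, was at 41.4 and 4.96 FPKM, and Pih1d1, a subunit of the R2TP co-chaperone of HSP90, at 49.0 and 2.09. Grpel1, the exchange factor of mitochondrial HSP70, was at 12.2 and 2.99 FPKM, and Dnajc19, a part of the mitochondrial import motor, at 29.5 and 4.94. Nasp, a histone chaperone, was at 59.0 and 10.7 FPKM, Dnajc2, which acts on the ribosome, at 19.5 and 0.204, Pdcl, a phosducin-like partner of TRiC, at 12.4 and 1.60, and Hspa2, the testis-enriched HSP70, at 25.6 and 7.38. Hspb6 was at 12.5 FPKM in WT and listed at 0 in KO, while Dnajb5 and Dnajc4 were listed at 0 in WT and at 17.3 and 19.4 FPKM in KO.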

How the data were processed

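RNA of ATM from 1 WT and 1 KO library was sequenced. Per the labels, CASAVA 1.8.2, TopHat2 2.0.9, Cufflinks 2.2.1 and the mm9 build were used by the submitters; the annotation, strand setting and filters are not given in the sources used here. The deposited table holds 1 FPKM value per gene and library, scaled by the authors for transcript length and library size. It is not a count table, so no count model was used. The column named mut was taken as KO, the only sample that is not WT.

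Of 20749 rows, 401 repeated another in full and were dropped, and 18 with other values for a present identifier were summed. Symbols (98.5% of 20330 identifiers) and lengths (the longest coding transcript) came from GENCODE M21 on GRCm38. Genes that reached 1 FPKM in WT, KO or both were compared as log2(FPKM + 1), which understates the change of low genes. No p-value was computed. Fragments were estimated from a step in FPKM x kb, the median of the lowest window, 6% wide, that held at least 10 single-transcript genes; 9 genes in WT and 13 in KO lay within 3% of it. These numbers cover counting error only. The functions were tested on simulated data. Named were all members, and other chaperone genes past 3-fold with at least 10 FPKM in a library. Hspa1l, Fkbp4, Fkbp5, the markers and the control genes named fall outside this rule and were chosen after their values were seen. Genes of the later lists of R2TP, prefoldin-like, actin and tubulin genes, such as Pdrg1, Uri1 and Rpap3, are named outside it too. Members and lists were chosen with earlier results of these data known. Alternatives changed the pseudocount, filter, scaling, threshold, repeated rows and the Hspa1a and Hspa1b pair. Python 3.11.15 with pandas 2.3.3 and numpy 2.4.6 was used.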

Additional observations from a re-analysis of the deposited data

How the results depend on the processing

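Precision is limited by the single library per genotype, and below about 50 FPKM unrelated genes often passed 3-fold. No paired analysis was possible because WT and KO were sequenced as 1 library each. Of 285 recomputed changes of single members, 283 stayed within 1.5-fold of the reported value. With a pseudocount of 0.1 the change of Hspb1 was 7.38 and that of Vbp1 was 3.11, since these were at or near 0 in WT. The counts of all genes past 3-fold fell from 1402 higher and 1413 lower to 429 and 447 when WT and KO both had to reach 1 FPKM, and to 598 and 646 when their mean had to reach 5 FPKM, so that fewer genes are tested. At a 2-fold threshold they were 2380 and 2314, and the members lower in KO went from 2 to 6. The other 118 recomputed counts and medians stayed within 1.5-fold. The sign changed only for values near 0: the HSP40 median and Dnajb9 under both scalings, the median of other chaperone genes under equal sums, and, with no filter, that median and the median of all genes, which became 0.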

Other observations

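Pfdn2 and Pfdn6 are also subunits of a prefoldin-like complex that joins the R2TP co-chaperone of HSP90, so the other subunits were looked up. This list of 11 genes was chosen after the values of Pfdn2, Pfdn6 and Pih1d1 had been seen, so its counts are a description. Of the 11 genes, 9 had the lower value in KO and 4 were lower past 3-fold, namely Pfdn2, Pfdn6, Pih1d1 and Ruvbl2, of which the first 3 had prompted the list. Among all 10297 genes compared, 5017 had the lower value and 13.7% were lower past 3-fold. Ruvbl2, an ATPase of R2TP, was at 19.9 FPKM in WT against 2.80 in KO, whereas its partner Ruvbl1 was at 13.5 and 16.3. Uxt was at 9.66 and 2.58 FPKM and Pdrg1 at 28.6 and 9.49. Their changes of -1.58 and -1.50 lay just inside 3-fold on the scale of log2(FPKM + 1). Polr2e was at 64.4 and 28.8 FPKM and Wdr92 at 51.4 and 42.7. Uri1 was at 0.865 FPKM in WT against 1.69 in KO, and Rpap3 was at 4.17 and 2.49.

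Actin and tubulin are the main clients of prefoldin and TRiC, and 7 of their genes were added in the same way. Of the 7, 0 passed 3-fold and 5 had the lower value in KO, with a median change of -0.36. Among all genes 27.3% passed and 5017 of 10297 had the lower value. By mean level 3 of the 7 lay at 200 FPKM and above, where 1.27% of genes passed, 2 at 50 to 200, where 4.31% did, and 2 at 10 to 50, where 16.3% did. Actb was at 3383 FPKM in WT against 2639 in KO, Actg1 at 1186 and 1229, Tuba1b at 342 and 169 and Tubb5 at 190.3 and 141.

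A pair of HSP90 immunophilins, named after their values were seen, differed in opposite directions, neither past 3-fold. Fkbp5, a gene that glucocorticoid raises, was at 26.9 FPKM in WT against 52.7 in KO, and Fkbp4 was at 21.1 and 10.1.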
